A study of Homo sapiens with 9 samples.

Results

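TSPAN14, NLE1, FLNC, and LIPA are the 4 genes of the sponge signature of the study, taken by symbol from a table of 14839 genes, and each symbol matched 1 row. A sponge RNA is a transcript that binds a microRNA without being degraded by it, so that less of the microRNA is free for its targets. The transcriptome of MP41, a human uveal melanoma cell line, was measured by sequencing of polyA RNA. There were 9 libraries: 1 of cells harvested before transfection (0 h), 4 of cells given a synthetic miR-16 at 66 nM, harvested at 6, 12, 24, and 48 h, and 4 of cells given the control mimic miR-CTR at the same dose and times. Each condition is 1 library of 1 cell line, so no difference given here has a replicate check and none has a p-value. The 0 h cells had received no transfection, so in a change since 0 h the effects of transfection, time in culture, and the mimic cannot be told apart. Values are log2 of size-factor-normalized reads plus 1. Intervals are 95% counting intervals, from the reads alone, and do not include the variation between cultures. In these bulk libraries, a lower share of the transcripts and less RNA per cell cannot be told apart.

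A microRNA usually pairs through its seed, bases 2 to 8, with a matching site in the 3′UTR of a transcript, which lowers the amount of that transcript. The 4 genes were singled out in the study from RNAs proposed to bind miR-16 without being lowered by it. They have separate roles. TSPAN14 is a tetraspanin of the TspanC8 group, whose members escort the protease ADAM10 to the cell surface, where it cuts Notch receptors. NLE1 (Notchless homolog 1) is a WD40-repeat protein needed to assemble the large ribosomal subunit. FLNC (filamin C) is the filamin best known from striated muscle, and it crosslinks actin filaments. LIPA is lysosomal acid lipase, which hydrolyses cholesteryl esters and triglycerides in the lysosome. The study picked them with a survival model in tumour data, from a list filtered on reads in pull-downs with miR-16 and with the control. That list was also chosen with the late logFC (the mean difference between miR-16 and miR-CTR at 24 and 48 h) and the 0 h level of these same libraries. Their late logFC and basal level are therefore descriptions and not independent evidence.

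The libraries held 20.3 to 27.4 M recovered reads (median 22.1 M), and their median gene lay between 9.13 and 9.17. All 7 melanocyte markers were measured, with TYRP1 at 17.88, PMEL at 16.62, and MLANA at 14.01 at 0 h. Their summed level was 18.63 to 18.94 with miR-16 and 18.59 to 18.83 with miR-CTR. Of 8 skeletal muscle markers, which were looked up because FLNC is the muscle filamin, 3 were in the table, and ACTA1, CKM, and MYOG were not. Those present were TNNT1 (9.1 at 0 h), DES (5.51), and MYOT (3.75). The 3 muscle markers summed to 9.09 to 9.67 with miR-16 and 9.05 to 9.78 with miR-CTR. Of 9 markers of stroma, endothelium, and leukocytes, 3 were in the table, at a summed 9.0 to 9.26 and 8.92 to 9.63, and PECAM1, VWF, and PTPRC were not. Those present were COL1A1 (8.31 at 0 h), LUM (6.94), and CD68 (5.48).

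The guide sequences come first, since the question put to these RNAs is how they can bind miR-16. The miR-16 sequence is the mature miR-16-5p of RefSeq. The control sequence is the other biotinylated oligonucleotide of the study, which stands in the row of miR-16 while the miR-16 sequence stands in the row of miR-CTR. These rows were taken as swapped, and the transfected miR-CTR was assumed to have the same sequence. The capitals mark the seed.
miR-16-5p: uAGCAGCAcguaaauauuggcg
control sequence: uUGUACUAcacaaaaguacug
A 3′UTR matches the miR-16 seed where it holds TGCTGCT, called a 7mer-m8. An 8mer has one more base, an adenine at its end, and reads TGCTGCTA. A 7mer-A1 is the 8mer without its first base. The 6mer GCTGCT lies inside all of these, and only 6mers outside them were counted as such. For the control sequence the 7mer-m8 is TAGTACA, and the other forms are built from it in the same way. The search ran on the transcript strand. Of 11570 measured protein-coding genes, 29.2% held a 7- or 8-base match to miR-16 in their longest annotated 3′UTR, and 14.7% held one to the control sequence.

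TSPAN14 (ENSG00000108219.14, chromosome 10 from 80454166 to 80533123, forward strand, GRCh38 with GENCODE version 29) was the 1 signature gene of 4 with a 7- or 8-base match to miR-16. Its 3′UTR matches depended on the transcript. The longest 3′UTR, of TSPAN14-207 (15147 bases), held an 8mer and a 7mer-m8. The 3′UTR of TSPAN14-206 (4655 bases) held the 7mer-m8 alone, and the 5 shorter annotated 3′UTRs held neither. Of 300 measured genes with a 3′UTR within 10% of the length of that of TSPAN14-206, 53.7% held a 7- or 8-base match. The deposited value is per gene, so the abundance of these transcripts was not measured. The 2 sites are shown with their flanks, in capitals where they match, at chr10:80525053-80525078 and chr10:80520047-80520072.
TSPAN14 8mer: aattgagagTGCTGCTAagattaaca
TSPAN14 7mer-m8: cctgggcacTGCTGCTgcatgagctg

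The other 3 signature genes held no 7- or 8-base match to miR-16 in any annotated 3′UTR. NLE1 (ENSG00000073536.17, chromosome 17 from 35128753 to 35142315, reverse strand) had 3 isolated 6mers in its longest 3′UTR, of NLE1-203 (3684 bases). Of 300 3′UTRs of like length, 52.0% held a longer match. The shorter annotated 3′UTRs of NLE1, of NLE1-202 (1090 bases), NLE1-201 (366), and NLE1-204 (193), held no 6mer. At the length of NLE1-202, 21.3% of 3′UTRs held a longer match. FLNC (ENSG00000128591.15, chromosome 7 from 128830377 to 128859274, forward strand) had 1 isolated 6mer in a 3′UTR of 751 bases, where 15.3% of those of like length held a longer match. LIPA (ENSG00000107798.17, chromosome 10 from 89213569 to 89414557, reverse strand) had none of these forms in its 1259-base 3′UTR, where the share at like length was 21.7%. LIPA was the 1 member with a 7-base match to the control sequence, a 7mer-A1. Matches to the control sequence were present in 7.67% of 3′UTRs of like length. These sites are shown to set the incomplete miR-16 matches beside that of LIPA to the control sequence, at chr17:35130296-35130321, chr7:128859221-128859246, and chr10:89213660-89213685.
NLE1 miR-16 6mer: tctcaggaaaGCTGCTgaagtcagtg
FLNC miR-16 6mer: tcagctgggaGCTGCTtaggtggaaa
LIPA control 7mer-A1: tgcactaacAGTACAAtgcttgttaa

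Pairing that does not need a perfect seed was described with RNAduplex, which gives the single most stable duplex between the guide and each 3′UTR without regard to the folding of the 3′UTR. In the 3′UTRs described above, the predicted energies with miR-16 lay between −14.3 and −19.0 kcal/mol. In the longest 3′UTR of TSPAN14 the best duplex (−19.0) fell on the 8mer. In the 3′UTR of TSPAN14-206 the energy was −16.9. That duplex overlapped the 7mer-m8 but was shifted against it, beginning at guide base 3, with 6 of the 7 seed bases paired. NLE1 had −18.9 in its longest 3′UTR, of NLE1-203, and −17.5 in that of NLE1-202. FLNC had −14.3 and LIPA −15.6. A value as low was reached by 74.3% of 3′UTRs of like length for TSPAN14-206 and 31.3% for NLE1-203. For FLNC and LIPA these shares were 74.7% and 63.7%, so none of these 4 was among the lowest 25% of 3′UTRs of its length. For NLE1-202 the share was 25.7%. For the 15147-base 3′UTR, 24 of like length were found, too few to compare. The predicted sites of the 3 genes without a 7- or 8-base match are shown with the paired bases in capitals, G to U pairs included, at chr17:35131178-35131197, chr7:128859161-128859178, and chr10:89213936-89213954.
NLE1 predicted duplex: GCCAGcTGTTTGtcTGCTGT
FLNC predicted duplex: GCCtttTTTACacaCTGC
LIPA predicted duplex: GCCAAagcccCGTGgTTGC
All of them begin with GCC, the complement of a stretch in the 3′ part of the guide, and so does the duplex in the 3′UTR of TSPAN14-206. The share of other 3′UTRs whose best duplex begins in this way was not computed. Of the 7 seed bases, 6 were paired in NLE1, 4 in FLNC, and 6 in LIPA. With the control sequence the best energies were −15.2 for TSPAN14-206, −17.8 for NLE1-203, −11.7 for FLNC, and −11.1 for LIPA. That of NLE1-203 was reached by 5.0% of 3′UTRs of like length, whereas that of NLE1-202 (−11.6) was reached by 57.7%. A predicted duplex is a description and not a measured site.

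At 0 h, before transfection, TSPAN14 had the highest value of the 4 genes (12.23), followed by FLNC (11.65), LIPA (10.75), and NLE1 (10.40). These values count reads, and a longer transcript yields more of them. Per kilobase of annotated exons, LIPA stood at 351 normalized reads and FLNC at 346, which differed by less than their counting error. TSPAN14 stood at 269 and NLE1 at 247, or 8.07 and 7.95 on the log2 scale, further apart than the counting error of either value. TSPAN14 has 17888 bases of annotated exons, much of it the long 3′UTR, so its level per kilobase depends on how often that 3′UTR is used, which was not measured. Among 12985 genes with 1 annotated model, the 4 ranked 3223 (LIPA), 3276 (FLNC), 4073 (TSPAN14), and 4375 (NLE1). All 4 thus lay in the upper part of the expressed genes and close to each other.

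TSPAN14 stood at 12.23 at 0 h. With miR-CTR it was 11.99, 12.25, 12.30, and 12.49 at 6, 12, 24, and 48 h, and with miR-16 it was 12.14, 12.48, 12.80, and 13.16, on 3933 to 8664 reads a library. It was above 0 h with both mimics at 48 h, and from 12 h on every miR-16 library lay above the miR-CTR library of its time and above 0 h. The miR-16 values went up by 0.34, 0.32, and 0.36 from one time to the next, although these intervals last 6, 12, and 24 h. The difference between the mimics (logFC) grew over the 4 times from 0.15 to 0.23, then to 0.50, and last to 0.67. The late logFC was 0.585 (0.55 to 0.62), a 1.5-fold difference. Relative to 0 h, the late mean was 0.75 higher with miR-16 (0.70 to 0.80) and 0.165 higher with miR-CTR (0.12 to 0.21). TSPAN14 was thereby the only member above 0 h with both mimics.

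LIPA stood at 10.75 at 0 h. With miR-CTR it was 10.52, 10.46, 10.52, and 10.59, and with miR-16 it was 10.60, 10.84, 11.05, and 11.52, on 1352 to 2779 reads. The miR-CTR libraries were all below 0 h and stayed within 0.13 of each other, while the miR-16 libraries climbed past 0 h from 12 h on. All miR-16 values were above all miR-CTR values. The difference between the mimics was 0.08 at 6 h, with a counting interval that included 0 (−0.03 to 0.19). It was 0.38 at 12 h and 0.53 at 24 h. By 48 h it had reached 0.93 (0.84 to 1.02), where the value with miR-16 was 1.91-fold that with miR-CTR. The late logFC of 0.73 (0.66 to 0.80) was the highest of the 4 genes. Relative to 0 h, the late mean was 0.535 higher with miR-16 (0.45 to 0.62) and 0.195 lower with miR-CTR (a difference of −0.28 to −0.11).

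FLNC stood at 11.65 at 0 h. With miR-CTR it was 11.67, 11.50, 11.46, and 11.26, and with miR-16 it was 11.79, 11.51, 11.70, and 12.05, on 2683 to 4013 reads. At 12 h both mimics gave nearly the same value, below 0 h, and from there on they parted, upward with miR-16 and downward with miR-CTR. The first 2 times gave a logFC of 0.12 and 0.01, the latter with an interval that included 0 (−0.06 to 0.08). It was 0.24 at 24 h (0.17 to 0.31) and 0.79 at 48 h (0.72 to 0.86). The late logFC of 0.515 (0.46 to 0.57) was thus made mostly by the 48 h libraries. Relative to 0 h, the late mean was 0.225 higher with miR-16 (0.16 to 0.29) and 0.29 lower with miR-CTR.

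NLE1 stood at 10.40 at 0 h. With miR-CTR it was 10.42, 10.33, 10.08, and 9.85, and with miR-16 it was 10.65, 10.45, 10.52, and 10.43, on 1030 to 1523 reads. At 6 h miR-16 was 0.25 above 0 h and miR-CTR 0.02 above it. At 24 and 48 h the difference lay on the side of the control, since the miR-16 libraries were near 0 h while the miR-CTR libraries went down. The corresponding logFC were 0.23 and 0.12 early, and 0.44 and 0.58 at 24 and 48 h. The late logFC was 0.51 (0.43 to 0.59), a 1.42-fold difference. Relative to 0 h, the late mean with miR-16 was 0.075 higher, with an interval that included 0 (−0.02 to 0.17). With miR-CTR it was 0.435 lower (a difference of −0.53 to −0.34).

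**Figure D1:**
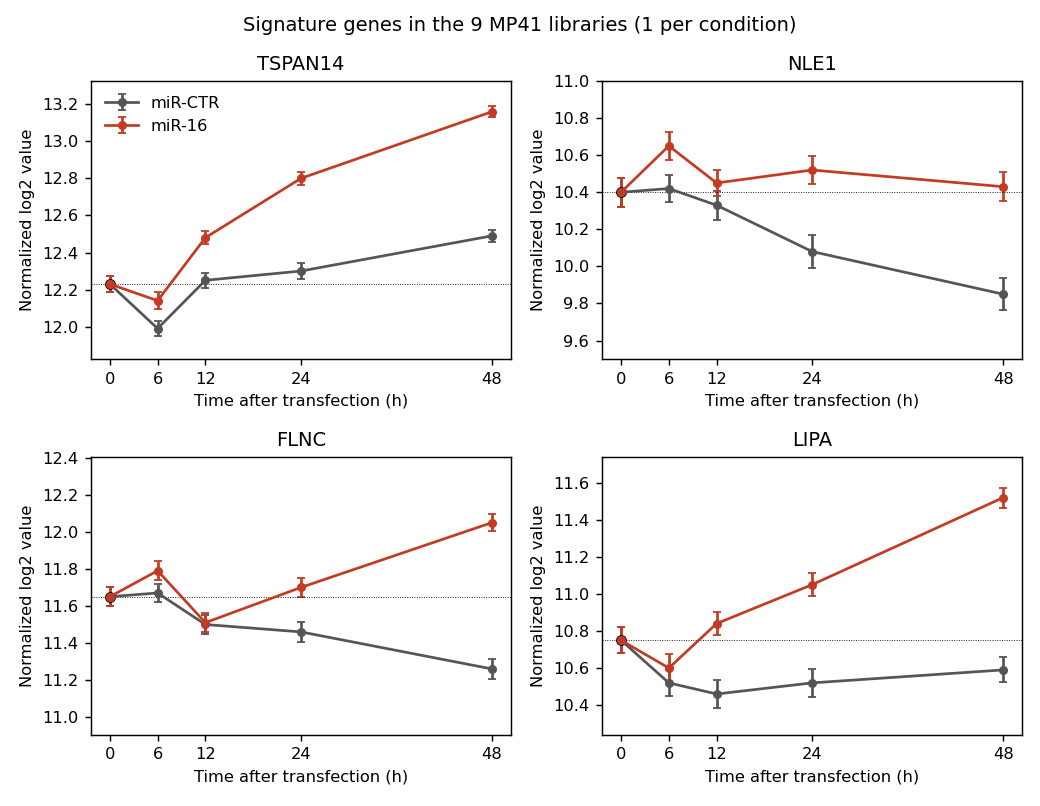
Normalized log2 value of the 4 signature genes (y axis, the same span in every panel) against time after transfection in hours (x axis), for miR-CTR (grey) and miR-16 (red), with the 0 h library in black and as a dotted line. Each point is 1 library and bars are 95% counting intervals; TSPAN14 ends at 13.16 with miR-16 and 12.49 with miR-CTR, whereas NLE1 ends near its 0 h value with miR-16 (10.43) and below it with miR-CTR (9.85).

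All 16 logFC of the 4 genes at single times were above 0. Such a logFC at all 4 times was found for 17.7% of all genes and for 43 of the other 53 potential sponges of the study. Past the logFC of 0.5 used in the study were 0 of the 4 at 6 h, where 3.38% of all genes passed, and 0 at 12 h, where 3.31% passed. LIPA alone passed at 24 h, against 7.24% of all genes, with TSPAN14 exactly at 0.50. All 4 passed at 48 h, against 10.4%. The 24 and 48 h values make up the late logFC used in choosing the genes. Their counts and signs are therefore no independent evidence. By the late logFC all 4 passed, against 7.76% of all genes, which follows from how they were chosen (5.73% of all genes were below −0.5). Of the genes outside the lowest 25% by mean value, to which the 4 belong, 3.96% passed. A share of 5.59% of all genes had a higher late logFC than TSPAN14, 7.51% than NLE1, 7.39% than FLNC, and 3.17% than LIPA. The study compared the mimics at 6 and 12 h too, and its text does not say whether these values had a part in choosing the genes. The early logFC is the mean of 6 and 12 h. It was 0.19 for TSPAN14, 0.175 for NLE1, 0.065 for FLNC, and 0.23 for LIPA, and 0 of the 4 passed 0.5, against 2.04% of all genes. Of the 1000 genes nearest to each in mean value, 3.7% had a higher early logFC than TSPAN14, 5.5% than NLE1, 23.2% than FLNC, and 3.7% than LIPA.

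**Figure D2:**
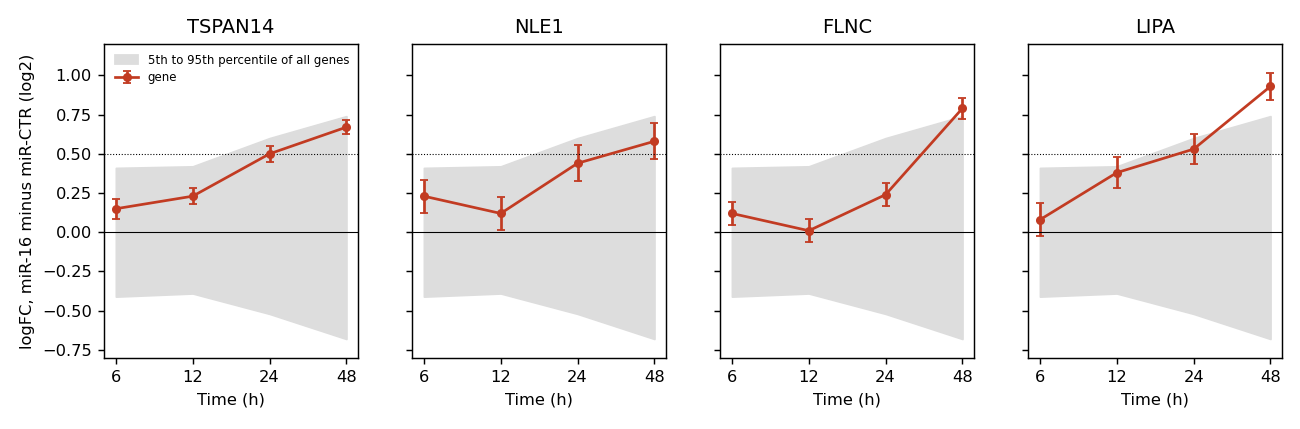
logFC of miR-16 against miR-CTR (y axis, log2) at 6, 12, 24, and 48 h (x axis, evenly spaced) for each signature gene in red, with 95% counting intervals, on the band from the 5th to the 95th percentile of all 14839 genes in grey. The dotted line marks 0.5; LIPA (0.93) and FLNC (0.79) leave the band at 48 h, while TSPAN14 (0.67) and NLE1 (0.58) stay inside it. The band is not matched for level: of the 1000 genes nearest in mean value, 2.4% were higher than TSPAN14 at 48 h and 2.3% than NLE1.

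The change since 0 h separated the 4 genes. The late mean with miR-16 was more than 0.5 above 0 h for 2 of the 4, TSPAN14 and LIPA, against 14.1% of all genes. The late mean with miR-CTR was more than 0.5 below 0 h for 0 of the 4, against 9.79% of all genes. With miR-16, 6.93% of all genes were further above 0 h than TSPAN14, 12.7% than LIPA, 29.8% than FLNC, and 42.5% than NLE1. Among the 1000 genes nearest to each in mean value, these shares were 2.2%, 5.2%, 18.5%, and 32.8%. With miR-CTR, 12.7% of all genes were further below 0 h than NLE1, 21.9% than FLNC, and 29.8% than LIPA. Among the 1000 nearest, these shares were 9.2%, 21.5%, and 27.5%. NLE1 was thus nearer to the edge of all genes by its control libraries, and TSPAN14 and LIPA by their miR-16 libraries. The late values and the 0 h level went into choosing the genes, so these counts and shares are no independent evidence.

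**Figure D3:**
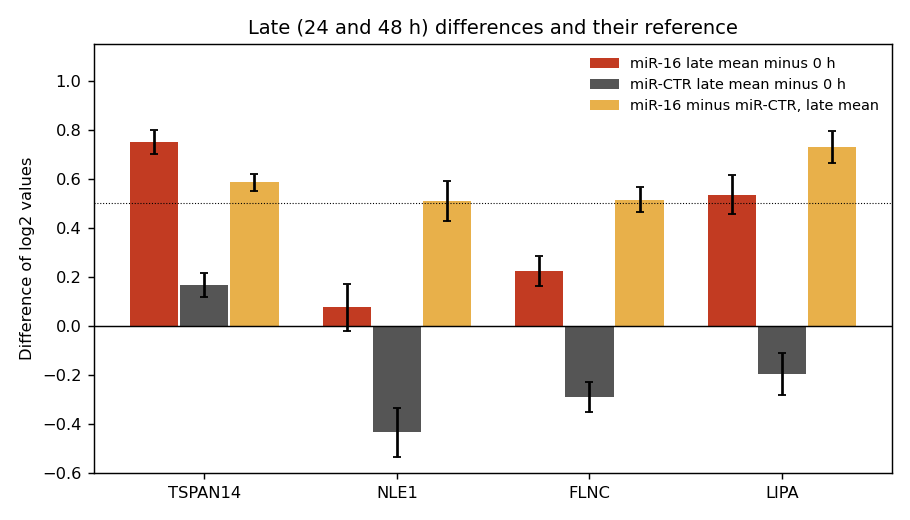
Late (mean of 24 and 48 h) differences of log2 values (y axis) for the 4 signature genes: miR-16 against 0 h in red, miR-CTR against 0 h in grey, and miR-16 against miR-CTR in yellow. Bars carry 95% counting intervals and the dotted line marks 0.5, which all yellow bars pass because of how the genes were chosen. The yellow bars run from 0.51 for NLE1 to 0.73 for LIPA, and the red bars from 0.075 for NLE1 to 0.75 for TSPAN14.

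In the list of 57 potential sponges of the study, all of which were measured, 49 had a late logFC above 0.5. The lowest stood at 0.485, and NLE1 (0.51) and FLNC (0.515) were among those just inside. Without the 4 signature genes, the median late logFC of the other 53 was 0.63, against 0.005 for all genes. Their median late change since 0 h was 0.165 with miR-16 and −0.525 with miR-CTR. The corresponding medians of the 4 members were 0.38 and −0.242, from 4 genes that ranged from 0.075 to 0.75 and from −0.435 to 0.165. Of the other 53, 28 were more than 0.5 below 0 h with miR-CTR, against 0 of the 4 members and 9.79% of all genes. Above 0 h with miR-16 and below it with miR-CTR were 29 of the 53 and 3 of the 4 members (NLE1, FLNC, and LIPA), against 11.0% of all genes. Both mimics were above 0 h for 8 of the 53 and for TSPAN14, against 38.1% of all genes. Ranked within the 57 from the highest late logFC down, LIPA was at 20, TSPAN14 at 35, FLNC at 47, and NLE1 at a tied 48.5. The list was chosen in the study on these libraries, so its direction is no independent evidence.

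**Figure D4:**
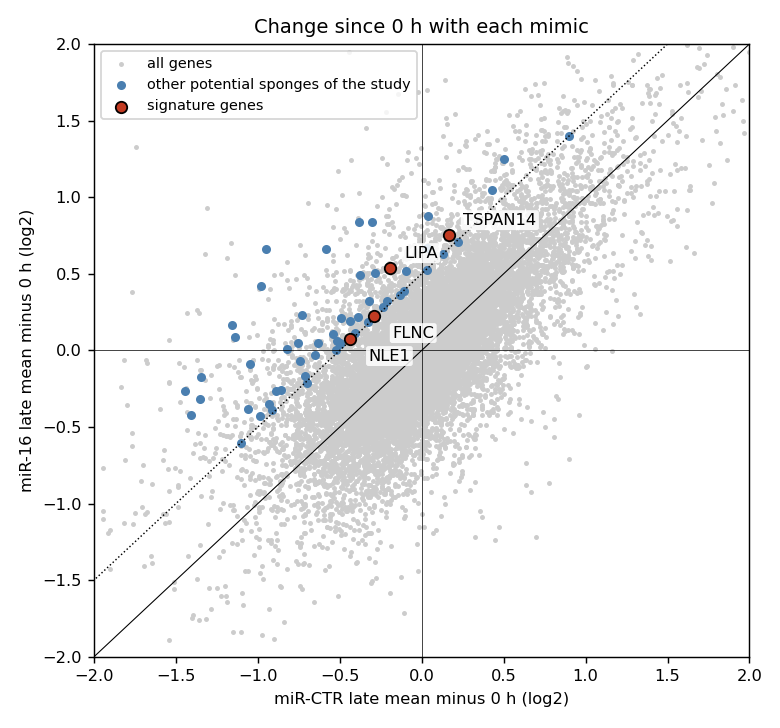
Late change since 0 h with miR-16 (y axis, log2) against that with miR-CTR (x axis, log2), for all genes (grey), the other 53 potential sponges (blue), and the 4 signature genes (red). The solid line marks equal change and the dotted line a late logFC of 0.5; the axes end at 2 and 76 genes lie outside. TSPAN14 is on the right of 0 and LIPA, FLNC, and NLE1 on the left, with NLE1 close to the horizontal line.

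The likeness of the 4 genes across the 9 libraries was described for each pair. Pearson's r between LIPA and TSPAN14 was 0.91, between FLNC and NLE1 0.73, and between FLNC and LIPA 0.71. For FLNC and TSPAN14 it was 0.43, for LIPA and NLE1 0.32, and for NLE1 and TSPAN14 0.01. By ranks (Spearman's rho) the order differed, with 0.82 for FLNC and NLE1, 0.62 for LIPA with TSPAN14 and with FLNC, 0.59 for LIPA and NLE1, 0.03 for FLNC and TSPAN14, and −0.02 for NLE1 and TSPAN14. The points share their libraries and their time order, so these values are descriptions. LIPA and TSPAN14 both lie on chromosome 10, with 8.68 megabases between them. The 3 genes most alike to each member were sought among the 11129 genes above the lowest 25% by mean value. For TSPAN14 they were the chromatin reader MBTD1, the cytochrome oxidase assembly factor SURF1, and the neuregulin receptor ERBB3, each with r = 0.99. For NLE1 they were the kinase MAPKAPK3 (0.99), the magnesium transporter SLC41A1 (0.99), and C10orf2, the mitochondrial helicase Twinkle (0.98). For FLNC they were the deacetylase HDAC9 (0.97), the ciliary transport protein WDR35 (0.96), and the focal adhesion protein ZYX (0.94). For LIPA they were the transcription factor CREB5 (0.99), WWTR1 (0.99), which is the Hippo pathway effector TAZ, and the kinase MAST3 (0.98). With 11129 genes and 9 time-ordered libraries, high values of r are easily reached.

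The pathway lists are given beside the shares of all genes, 7.76% above 0.5 and 5.73% below −0.5 by the late logFC, with a median of 0.005. Of TSPAN14, the other 5 TspanC8 tetraspanins, and ADAM10, which were all measured, TSPAN14 alone had a late logFC past 0.5, and the median of the 7 was −0.035. TSPAN14 was chosen with the late logFC, so its passing is no independent evidence. Without it, 0 of 6 passed 0.5 and the median was −0.07. TSPAN33 was at 0.335, TSPAN15 at −0.26, and TSPAN5 at −0.275. ADAM10, the protease they escort, was at 0.03, with 0.215 above 0 h with miR-16 and 0.185 with miR-CTR. Among 12 other measured tetraspanins 1 passed 0.5, TSPAN7 (1.27), at a mean log2 value of 5.88 and thus among the lowest 25% of genes, and their median was −0.03. In the Notch pathway, to which both the TspanC8 tetraspanins and NLE1 have been linked, 24 genes were measured, 2 were above 0.5 and 2 below −0.5, with a median of 0.03. The coactivator MAML3 was at 1.10 and the receptor NOTCH2 at −0.53. NOTCH4 (0.91) and the Notch target HEY2 (−0.685) also passed, both among the lowest 25% of genes.

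The ribosome assembly list gave the background of NLE1. All 40 factors of the large subunit were measured, and 35 lay below 0 h in the late libraries with miR-16 and 37 with miR-CTR. Of all genes, 38.7% were below 0 h with both mimics, a further 11.0% with miR-16 only, and a further 11.0% with miR-CTR only. The median change of the 40 factors since 0 h was −0.297 with miR-16 and −0.422 with miR-CTR, against −0.005 and 0.0 over all genes. NLE1 with miR-CTR (−0.435) was close to the median of this list, and with miR-16 (0.075) it was among the 5 that were not below 0 h. By the late logFC 2 of the 40 passed 0.5, NLE1 and the nucleolar protein NIFK (0.625), and 2 passed −0.5, against 7.76% and 5.73% of all genes, with a median of 0.145. NIFK, like NLE1, is on the list of potential sponges of the study, which was chosen with the late logFC. The 2 lower genes were NMD3 (−0.80), the adaptor for export of the large subunit, and MDN1 (−0.635). MDN1, the AAA ATPase that pulls on NLE1 to release assembly factors, had a change opposite to that of NLE1 with miR-CTR: it was 0.85 above 0 h with miR-CTR and 0.215 above it with miR-16.

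FLNA was read beside FLNC. FLNA, the filamin of most tissues, stood at 12.69 at 0 h, at 12.82, 12.57, 12.14, and 11.12 with miR-CTR, and at 12.84, 12.54, 12.40, and 12.21 with miR-16. FLNA was lower at 48 h than at 0 h with both mimics, and lowest with miR-CTR. The late logFC was 0.675 for FLNA (0.63 to 0.72) and 0.515 for FLNC (0.46 to 0.57), so the counting intervals did not overlap. FLNA is also on the list of potential sponges of the study, which was chosen with the late logFC. That both passed 0.5 is therefore no independent evidence. FLNA and FLNC had a positive logFC from different changes, since FLNA was 0.385 below 0 h with miR-16 and 1.06 below with miR-CTR, and FLNC was on opposite sides of 0 h. At 12 h neither differed between the mimics beyond 0.03, and both differed most at 48 h (1.09 for FLNA and 0.79 for FLNC). Filamins are homologous, and reads from stretches they share could be assigned to either gene or dropped. Of 14 measured filamins and partners, 2 passed 0.5 and 1 passed −0.5 (the adhesion adaptor LIMS1, −0.565), against 7.76% and 5.73% of all genes, and the median was 0.182.

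The partners of LIPA went in both directions. Of 19 measured genes of lysosomal cholesterol handling and neutral lipid hydrolysis, 2 were above 0.5 and 2 below −0.5, against 7.76% and 5.73% of all genes, and the median was 0.065. LIPA, which was chosen with the late logFC, was 1 of the 2 above 0.5. MGLL, the monoacylglycerol lipase, was the other (1.23), at a mean log2 value of 5.02 and so among the lowest 25% of genes. Without LIPA, 1 of 18 was above 0.5 and the median was 0.058. SMPD1, the lysosomal acid sphingomyelinase, was at −1.625, and NCEH1, which hydrolyses cholesteryl esters outside the lysosome, was at −0.565. The cholesterol exporters of the lysosome, NPC1 and NPC2, were at 0.20 and −0.11. SOAT1, which makes the cholesteryl esters, was at −0.39. The lysosomal membrane proteins LAMP1 and LAMP2 were at −0.095 and −0.115.

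**Figure D5:**
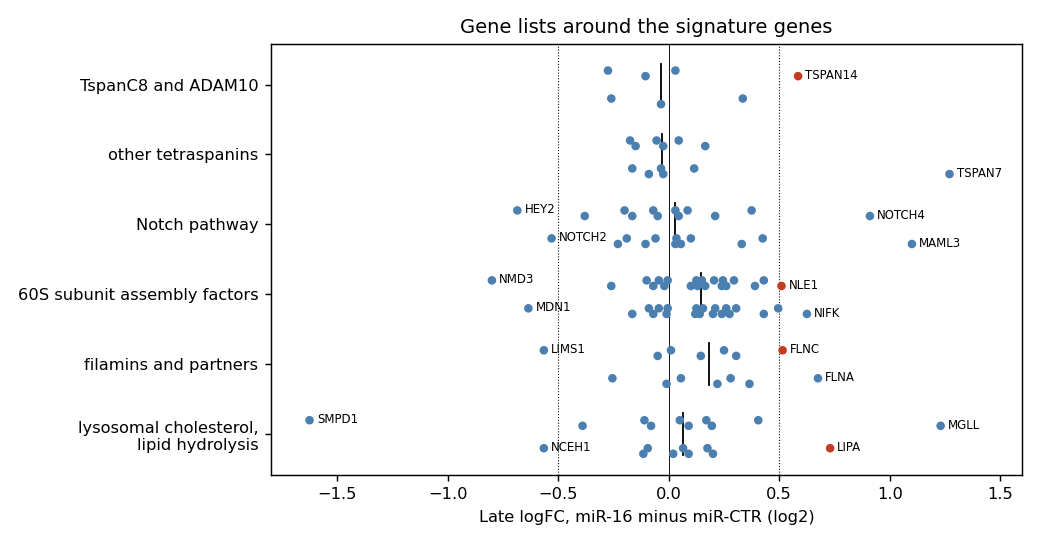
Late logFC of miR-16 against miR-CTR (x axis, log2) for each measured gene of the 6 lists (y axis; position within a list only separates points), with the signature genes in red and other genes in blue. Vertical bars are list medians and dotted lines mark 0.5 and −0.5; genes past these lines are named, and the medians lie between −0.035 and 0.182.

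PTP4A3 and HTR2B, genes linked to metastatic uveal melanoma that the study set beside the signature, were read in the same way. PTP4A3, a phosphatase, stood at 11.05 at 0 h, at 10.99, 10.74, 10.67, and 10.96 with miR-CTR, and at 11.10, 10.91, 11.15, and 11.52 with miR-16. HTR2B, a serotonin receptor, stood at 10.28 at 0 h, at 9.78, 9.55, 9.35, and 9.01 with miR-CTR, and at 9.86, 9.96, 9.78, and 9.57 with miR-16. PTP4A3 parted to opposite sides of 0 h late, as FLNC did, whereas HTR2B was below 0 h in every later library. Their late logFC of 0.52 and 0.495 were of the size of those of NLE1 and FLNC. Both genes are on the list of potential sponges of the study, which was chosen with this late logFC. The likeness is therefore no independent evidence. Relative to 0 h, PTP4A3 was at 0.285 with miR-16 and −0.235 with miR-CTR, and HTR2B at −0.605 and −1.10.

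Each signature gene overlaps another annotated gene on the opposite strand, and whether the counting used strand is not given in the sources used here. The shared exon bases are 235 for TSPAN14 with AC021028.1, 688 for NLE1 with FNDC8, 68 for FLNC with FLNC-AS1, and 65 and 135 for LIPA with IFIT2 and AL353751.1. Of these partners, IFIT2 was in the table, at a mean log2 value of 6.49 and a late logFC of 0.18. The part of such reads in the 4 genes was not tested.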

How the data were processed

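The authors deposited 1 table of normalized log2 values with 2 decimals for 14839 genes and 9 polyA RNA libraries of MP41 cells. The submitters' processing notes name FastQC, STAR 2.4.0a, featureCounts, Subread 1.5.0-p3, and the builds hg38 and GRCh38, with no parameters. Column names number the times, and these numbers were read in ascending order as 0, 6, 12, 24, and 48 h. Low values turned back to the linear scale were whole multiples of 1 step per library (0.8535 to 1.1474) for 100% of values, within 0.2 of a step, so the deposited unit is log2(reads / size factor + 1). Recovered reads gave the counting errors, and no further normalization was applied.

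The logFC was the difference of log2 values, meaned over 24 and 48 h (late) or 6 and 12 h (early), and 0.5 was the threshold. With 1 library per condition no test was run. Gene models, transcripts, and positions came from GENCODE version 29 (GRCh38), joined by symbol. miR-16-5p came from RefSeq (GRCh38.p14). Duplexes were computed with ViennaRNA 2.7.2. Other steps used Python 3.11.15, numpy 2.4.6, pandas 2.3.3, scipy 1.17.1, and matplotlib 3.10.9. The calling and the recovery of reads were checked on simulated data.

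Named were the 4 signature genes, PTP4A3, HTR2B, FLNA, the 3 genes most alike to each member, and genes of the fixed lists past 0.5 (at most 5 a list). One further gene of this rule is not reported here. ADAM10, TSPAN5, TSPAN15, TSPAN33, NPC1, NPC2, SOAT1, LAMP1, and LAMP2 were named besides, after their values were seen, as were the cell type markers given with values. The members and lists were chosen with earlier results of these data known. Alternatives were other normalizations, windows, references, filters, and site definitions. The pull-down, RT-qPCR, and tumour data of the study were not analysed here.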

Additional observations from a re-analysis of the deposited data

Results flagged for a closer look

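SMPD1, the lysosomal acid sphingomyelinase, drew attention among the partners of LIPA because its libraries moved to opposite sides of 0 h at every time. With miR-16 it differed from 0 h by −1.2 to −0.07, and with miR-CTR by 0.2 to 0.64. Its late logFC was −1.625. The difference was not tested, since each condition has 1 library. It was the only such gene of the 32 checked.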

How the results depend on the processing

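The direction of the late logFC of the 4 signature genes was positive under all 8 alternatives, and its size depended on the window and the reference. All but the early window use the 24 or 48 h libraries, which went into choosing the genes, so this direction is no independent evidence. Quantile normalization, centring on the median gene, and scaling to the library totals moved none of the 4 beyond the counting error. With the 0 h library as the reference, the values were 0.75 for TSPAN14, 0.535 for LIPA, 0.225 for FLNC, and 0.075 for NLE1, so FLNC and NLE1 no longer passed 0.5. The interval of NLE1 then included 0 (−0.02 to 0.17). At 24 h alone they were 0.50 for TSPAN14, 0.53 for LIPA, and 0.24 for FLNC, and at 48 h alone 0.67, 0.93, and 0.79. At 24 h NLE1 was at 0.44. In the early window they were 0.19 for TSPAN14, 0.23 for LIPA, 0.065 for FLNC, and 0.175 for NLE1, and over all 4 times 0.387, 0.48, 0.29, and 0.342. The number of genes above 0.5 was 1151 (851 below −0.5). It was 2095 (1736) with the 0 h reference, 302 (215) in the early window, 440 (292) over all 4 times, 720 (546) with scaling to the library totals, and 441 (535) without the lowest 25% of genes. Quantile normalization gave 996 above and 1002 below. Spearman's rho was −0.02 for NLE1 and TSPAN14 (Pearson's r 0.01) and 0.62 for LIPA and TSPAN14 (0.91). With isolated 6mers counted, 3 of the 4 genes matched the miR-16 seed, instead of 1, for NLE1 in its longest 3′UTR alone. The share of all genes with a 6mer was not computed, so this count has no background beside it. No paired analysis was possible because the labels give no replicate numbers. The mimics were matched by time, as in the mean over all 4 times, but times are not replicates of a condition and no test was taken over them. The 4 genes had 1030 to 8664 reads a library, so counting error was small, and the variation between cultures is unknown.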
